A study of Homo sapiens with 18 samples.

Results

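The account concerns A549, a human lung adenocarcinoma cell line, in 4 groups of 3 RNA sequencing libraries. The A549.BLM.siRNA1, A549.BLM.siRNA2 and A549.BLM.siRNA3 libraries came from cells transfected with 1 of 3 different siRNAs against BLM, and the A549.CTL libraries from cells given a control siRNA. All 4 groups were grown in serum-containing medium. The 9 BLM siRNA libraries were taken as 1 condition, with equal weight for each siRNA, and set against the 3 controls, which makes 12 of the 18 libraries of the series. The other 6 are MDA-MB-231 breast cancer cells with siRNA1 or a control siRNA, and they are used at the end as libraries and controls that the A549 comparison does not share. An siRNA knocks a transcript down only in part, and 3 siRNAs against 1 transcript share their target but not their sequence, so what the 3 have in common was asked of every gene. No siRNA sequence was used here. The protocols name both flat and 3D culture without saying which library had which. The labels do not tell whether replicate libraries were grown apart, so each p-value rests on library-to-library spread that may be technical only.

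BLM encodes a RecQ helicase, a motor that unwinds DNA. With topoisomerase III alpha and the RMI proteins it takes apart the double Holliday junctions left by homologous recombination, and it acts at stalled replication forks. Its loss causes Bloom syndrome, in which sister chromatids exchange at a high rate. BLM transcription is tied to proliferation, as is that of most replication genes.

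BLM mRNA was lower in all 9 siRNA libraries than in any control library. It stood at 1.2, 1.18 and 1.17 with siRNA1, 10, 10.5 and 10.9 with siRNA2, and 6.37, 6.17 and 6.97 with siRNA3, against 80.2, 83.1 and 72.7 CPM in control libraries. The means were 1.5%, 13.2% and 8.27% of control with siRNA1, siRNA2 and siRNA3. CPM here is the count scaled to library size with TMM, a factor per library that evens out composition. The mean log2 fold change over the 3 siRNAs was -4.19 ± 0.06 (standard error; edgeR quasi-likelihood test, adjusted p 6.69e-14), and the log2 fold changes with siRNA1, siRNA2 and siRNA3 were -6.05, -2.91 and -3.6. In this account 3 log2 fold changes in a row always stand in that order, and a mean change is the average of the 3 with its standard error. The standard error of a change with 1 siRNA had a median of 0.12 over the genes named below and was at or under 0.3 for 91.2% of values.

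Totals ran from 30887830 to 40328208 expected counts per A549 library, and 14098 genes with at least 1 CPM in 3 or more of the 12 libraries were tested. Of 16 markers of A549 and alveolar epithelium, 12 reached at least 1 TPM in every library, among them the keratins KRT7, KRT8 and KRT18 and the aldo-keto reductase AKR1B10, while the surfactant genes SFTPA1, SFTPB and SFTPC and the lung transcription factor NKX2-1 stayed at or below 0.21 TPM. The summed level of this list was 13852 to 39705 TPM in siRNA libraries and 18631 to 19306 TPM in controls. Leukocyte markers summed to 30.62 to 44.96 TPM in siRNA libraries and 26.09 to 31.63 TPM in controls, most of it CD68. CD68 had 23.37 to 38.79 TPM in siRNA libraries and 19.71 to 24.38 TPM in controls. CD14 had 1.61 to 8.53 TPM and 4.3 to 5.89 TPM, while CD3D, CD3E and MS4A1 were at 0 in all libraries. Endothelial markers summed to 3.41 to 30.79 TPM with a BLM siRNA and 12.97 to 14.93 TPM in controls, nearly all of it ESAM, and EMCN was at 0. Replicate 3 of siRNA3 stood apart from its group: the SD over genes of its log2 deviation from the group mean was 0.256, against 0.0976 to 0.172 in the other 11 libraries, and that deviation had a Spearman correlation of -0.679 with transcript length across genes. Without this library 2585 genes were higher and 2322 lower with every siRNA, against 2159 and 2226 with it, by the rule given next.

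Averaged over the 3 siRNAs, BLM knockdown came with changes in most genes that A549 cells express, and 43.9% of these had one sign under every siRNA. The mean of the 3 siRNAs differed from control for 5007 genes that were higher (35.5% of those tested) and 4977 that were lower (35.3%), or 70.8% in either direction, by edgeR's quasi-likelihood test with Benjamini-Hochberg adjusted p under 0.05. One sign under every siRNA, meaning an adjusted p under 0.05 with each of the 3 and the same direction, was found for 2159 higher genes (15.3%) and 2226 lower genes (15.8%). The 3 comparisons share the 3 control libraries, so they are not independent. Of the 9984 genes called for the mean, 43.9% had one sign under every siRNA, 34.9% were called with 2 siRNAs and not opposite with the third, 12.3% with 1, and 8.68% were called in the opposite direction with at least 1 siRNA. Another 1148 genes (8.14%) were called with all 3 siRNAs but with unlike signs. On CPM alone, 2343 genes were higher in all 9 siRNA libraries than in any control library (16.6%) and 2431 were lower (17.2%).

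The size of these counts depends on what is taken as error. The test above uses the spread between libraries of 1 group and so speaks of these 3 siRNAs. When the 9 libraries were treated as 1 group and the spread between siRNAs counted as error, 2491 genes were higher and 2144 lower. Among them were 2087 of the 2159 and 1924 of the 2226 genes with one sign. That model takes the 9 libraries as independent, which libraries of 1 siRNA are not, so its p-values are likely too small. When the likeness of libraries with the same siRNA was estimated as well (a correlation of 0.861), 4 genes were higher and 1 lower, with 1849 at an unadjusted p under 0.05. Of the genes and functions described below, only the 5 named next were called in that last model. On the deposited TPM values plus 1, on a log2 scale, the split for the mean was 5914 higher and 3748 lower, or 61.2% higher in place of 50.2%, with the median of all genes shifted by 0.113, and on TPM plus 0.1 it was 60.6% higher.

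The 5 genes called in the most cautious model were BLM itself, lower, and THBD, SYTL2, DKK3 and TRIML2, higher. They are named because they were the only ones called there. DKK3, a secreted member of the dickkopf family of Wnt antagonists, had 48.8, 47 and 50.1 with siRNA1, 51.9, 49.3 and 46.2 with siRNA2, and 39.5, 42.4 and 47.3 with siRNA3, against 10.5, 10.2 and 9.62 CPM in control libraries. Every siRNA library lay above every control, and the 3 siRNAs gave log2 fold changes of 2.27, 2.28 and 2.09 that were not told apart by the test of equal size (adjusted p 0.0789). TRIML2, of the tripartite motif family, had 49.3, 50.8 and 48.7 with siRNA1, 38.8, 42.1 and 36.7 with siRNA2, and 55.2, 58.2 and 68.9 with siRNA3, against 2.76, 4.03 and 2.7 CPM in control libraries, with a mean change of 3.96 ± 0.13. THBD, the thrombin receptor thrombomodulin, rose by 3.05, 2.04 and 2.17, and SYTL2, a synaptotagmin-like effector of Rab27, by 2.52, 2.36 and 1.97 on the log2 scale. Adjusted p in the cautious model was 0.0225 for BLM and SYTL2 and 0.0233 for the other 3.

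**Figure D1:**
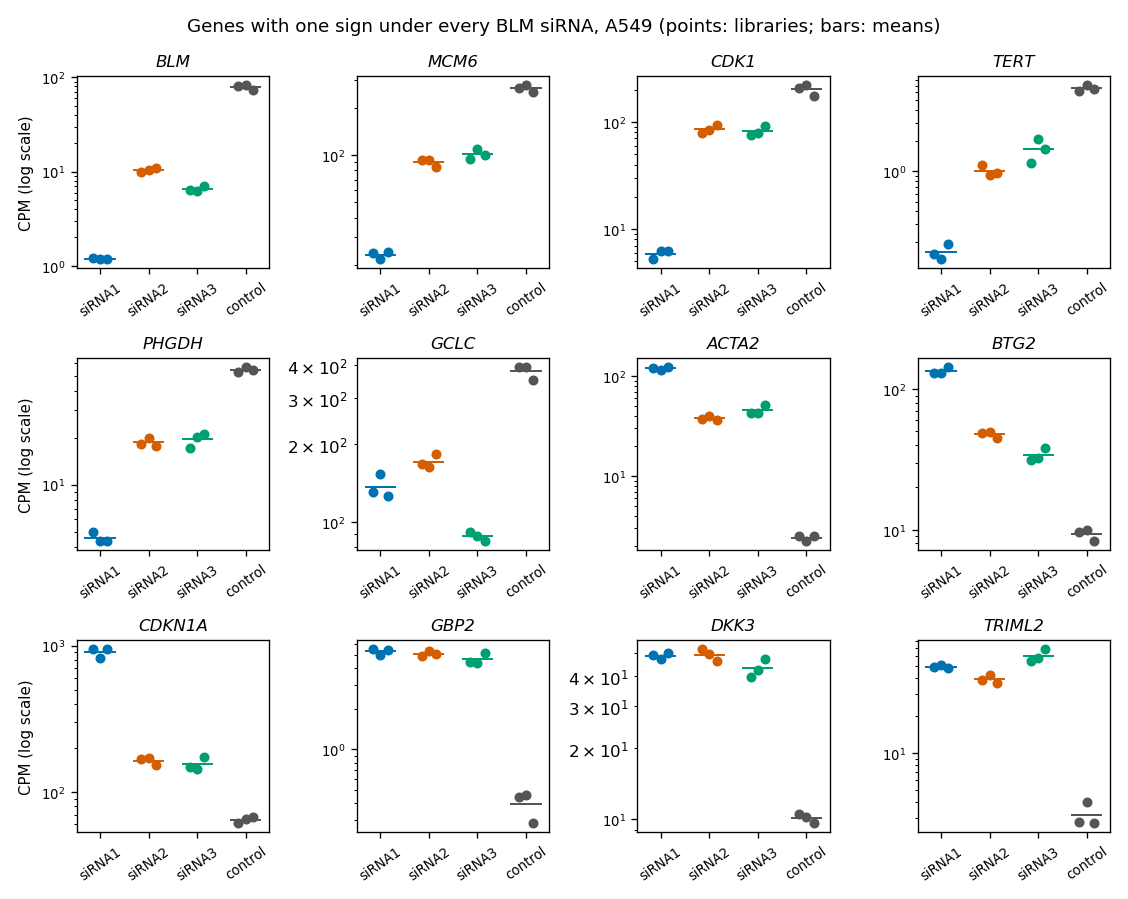
CPM of 12 genes in each A549 library, on a log axis, with BLM siRNA1, siRNA2 and siRNA3 left of control; points are libraries and bars are group means (n = 3 each). In all 12 genes the 9 siRNA libraries lie on 1 side of the 3 controls, and siRNA1 is farthest from control for BLM, MCM6, CDK1 and CDKN1A while the 9 siRNA libraries of GBP2 and DKK3 lie close together.

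Ranked by the smallest of the 3 changes, the genes highest with every siRNA were mostly silent or nearly so in control cells. A ranking by fold change favours such genes, so their low control level is no separate result. GBP2, SPOCK3, MANCR, FILIP1L, SELPLG and PINCR were below 1 CPM in every control library. They were tested only because siRNA libraries reached 1 CPM. ACTA2, the smooth muscle actin, had 120, 115 and 124 with siRNA1, 37.5, 39.6 and 36.4 with siRNA2, and 43.2, 42.7 and 52 with siRNA3, against 2.5, 2.22 and 2.49 CPM in control libraries, and its mean change was 4.62 ± 0.1. COL17A1, a transmembrane collagen of hemidesmosomes, had 49.8, 47 and 53.5 with siRNA1, 15.7, 16.6 and 15.5 with siRNA2, and 12.3, 9.87 and 13.7 with siRNA3, against 1.08, 1.3 and 1.16 CPM in control libraries, a mean change of 4.17 ± 0.13. GBP2, an interferon-inducible GTPase, had 5.56, 4.97 and 5.46 with siRNA1, 4.96, 5.34 and 5.11 with siRNA2, and 4.47, 4.4 and 5.16 with siRNA3, against 0.448, 0.46 and 0.283 CPM in control libraries. In these 3 genes the 9 siRNA libraries all lay above the controls, and for GBP2 the 3 siRNAs gave changes of 3.74, 3.69 and 3.55 that were not told apart (adjusted p 0.345). SPOCK3, a matrix proteoglycan, rose by 5.01, 4.97 and 3.95, the long noncoding RNA MANCR by 4.42, 3.73 and 4.02, FILIP1L by 3.39, 3.53 and 4.43 and SELPLG, the ligand of P-selectin, by 3.97, 3.25 and 5.22 on the log2 scale. Control libraries held 4 to 13 counts of SPOCK3, 6 to 9 of MANCR, 1 to 8 of FILIP1L and 1 to 4 of SELPLG, so these sizes are uncertain. The mean changes of FILIP1L and SELPLG were 3.78 ± 0.38 and 4.14 ± 0.45. The p53-induced noncoding RNA PINCR had 69 to 89 counts with siRNA1, 6 to 23 with siRNA2 and 7 to 12 with siRNA3, against 0 to 1 in control libraries, too few there for a fold change. TMEM256-PLSCR3, LOC100132062 and LOC100132287 also rank among the 15 highest and had 0 counts in every control library. The first is a readthrough transcript with 0 counts in replicate 2 of siRNA3, and the other pair hold identical counts, 13 to 57 per siRNA library, so the sharing of reads between copies leaves all 3 uncertain. PCDHB14 and PCDHGB5, protocadherins described below, are also among the 15.

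The genes lowest with every siRNA, BLM among them, were mostly expressed at a low level in control cells. HPCAL4, a neuronal calcium sensor, had 1 to 11 counts per siRNA library against 102 to 122 in controls. SLC2A4, the insulin-responsive glucose transporter GLUT4, had 1 to 8 counts against 60 to 63. TERT, the catalytic subunit of telomerase, stood at 0.15, 0.134 and 0.191 with siRNA1, 1.14, 0.914 and 0.962 with siRNA2, and 1.21, 2.1 and 1.64 with siRNA3, against 6.13, 7.11 and 6.51 CPM in control libraries. For these 3 all 9 siRNA libraries lay below the controls. SBSN fell, with changes of -3.53, -5.0 and -2.61, TUBAL3, an alpha-tubulin-like gene, by -2.33, -2.39 and -3.12, SYP, the synaptic vesicle protein synaptophysin, by -2.87, -2.05 and -3.23, and CA2, a carbonic anhydrase, by -2.21, -2.03 and -3.17 (log2 fold changes). ADAMTSL4 (-2.3, -2.14 and -2.5), GBX2 (-2.29, -2.05 and -2.06), a homeobox gene, and NECAB1 (-2.04, -2.62 and -1.95) fell with every siRNA, and the equality test did not tell the siRNAs apart (adjusted p 0.321, 0.459 and 0.482). ELOVL3, a fatty acid elongase, RAB39A, a small GTPase, and POLR3G, a subunit of RNA polymerase III, had mean changes of -2.81 ± 0.21, -2.62 ± 0.25 and -2.21 ± 0.17. The readthrough PHOSPHO2-KLHL23 had 5 to 127 counts with a BLM siRNA and 293 to 434 in controls, and its call with all 3 siRNAs was lost without siRNA3 replicate 2, control replicate 1 or control replicate 2 (adjusted p 0.0594 to 0.0696) and with DESeq2 (0.0967).

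Gene lists of 52 functions were compared with the background of 15.3% higher and 15.8% lower. In 14 lists at least 50% of the tested genes were lower with every siRNA, and in 1, p53 targets, at least 50% were higher. The 14 were origin and fork genes, nucleotide supply, E2F factors, mitotic, kinetochore and condensin genes, BLM complex, recombination, mismatch repair and checkpoint genes, and chromatin, telomerase, splicing and serine genes. A gene below 1 CPM in a control library passed the filter on low values only with the help of siRNA libraries, which favours higher genes; 358 of the 2159 higher genes and none of the 2226 lower ones were of this kind, and 14% of the 12885 genes at 1 CPM or more in every control were higher with every siRNA.

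**Figure D2:**
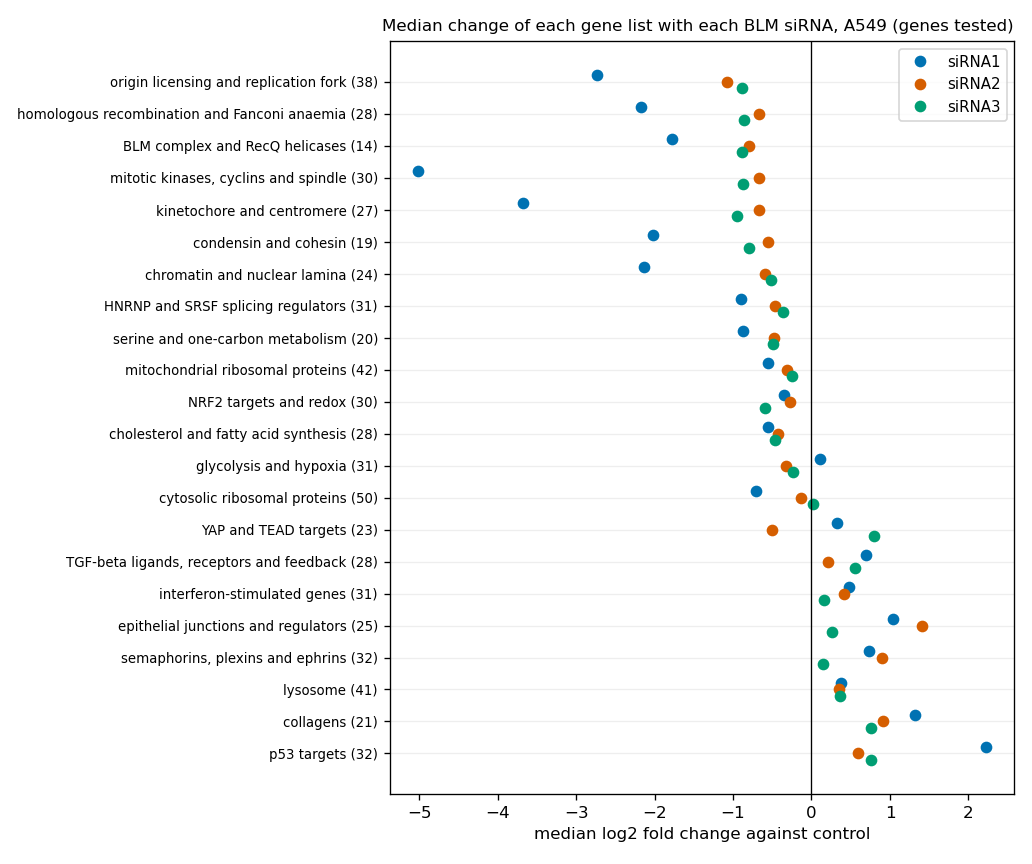
Median log2 fold change against control of 22 gene lists with siRNA1, siRNA2 and siRNA3 in A549; the number of genes tested stands after each name. Replication, recombination and mitosis lists lie left of 0 with every siRNA, farthest with siRNA1 (mitotic genes -5.01, -0.67 and -0.87), p53 targets and collagens lie right of 0 with every siRNA, and the medians of glycolysis, YAP target and cytosolic ribosomal protein lists fall on both sides of 0.

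Genes of replication origins and forks fell together, while replication-dependent histone genes did not. Only 6 such histone genes were tested, with 1 higher and none lower with every siRNA. For the mean 4 of them were higher and 1 lower. Of 38 genes of origin licensing and the replication fork, 37 were lower with every siRNA and none was higher, with median changes of -2.74, -1.08 and -0.89, where the medians of all genes were 0.04, -0.02 and -0.01. MCM6, a subunit of the replicative helicase, had 23.8, 21.7 and 24.3 with siRNA1, 93.6, 93.4 and 83.6 with siRNA2, and 94.4, 109 and 100 with siRNA3, against 269, 280 and 252 CPM in control libraries. MCM10, which helps assemble the fork, changed by -5.98, -1.92 and -1.45, POLE2, a subunit of DNA polymerase epsilon, by -4.2, -1.51 and -1.78, and CLSPN, the checkpoint adaptor claspin, by -4.61, -1.48 and -1.37 (log2 fold changes). Of 13 genes of deoxynucleotide supply 7 were lower, among them the dUTP pyrophosphatase DUT (-2.0, -1.05 and -0.91). MCM10 was not called with 9 libraries against 3 (adjusted p 0.0537).

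Genes of the BLM pathway and of recombination fell with it. Of 14 genes of the BLM complex and the RecQ family 11 were lower with every siRNA, BLM itself among them. They included the partners RMI1 (-2.3, -1.07 and -1.46) and RMI2 (-3.51, -2.05 and -1.72) and the nuclease DNA2 (-2.94, -1.38 and -1.2). Of 28 homologous recombination and Fanconi anaemia genes 24 were lower. BRCA2, a breast cancer gene that acts in recombination, changed by -4.29, -1.42 and -1.23, and FANCB and FANCE of the Fanconi core complex by -4.14, -1.4 and -1.49 and by -2.12, -1.99 and -1.09. Of 7 mismatch repair genes 4 were lower, such as MSH6 (-1.76, -1.12 and -0.92) and PMS1 (-1.16, -0.91 and -0.86), and for PMS1 the siRNAs were not told apart (adjusted p 0.229). Of 18 checkpoint genes 10 were lower, including the kinase CHEK1 (-1.71, -0.82 and -0.76) and the ATR activator TOPBP1 (-1.87, -1.18 and -0.69).

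Mitotic genes fell with every siRNA, but mostly by a large amount with siRNA1 only. Of 30 mitotic kinases, cyclins and spindle genes 25 were lower, of 27 kinetochore genes 23, and of 19 condensin and cohesin genes 16, and no member of the 3 lists was higher. CDK1, the kinase that drives entry into mitosis, had 5.21, 6.26 and 6.22 with siRNA1, 79.3, 84 and 93.5 with siRNA2, and 76.2, 78.3 and 92.2 with siRNA3, against 206, 221 and 174 CPM in control libraries. NUF2 of the outer kinetochore had 0.549, 1.12 and 0.9 with siRNA1, 36.2, 38.6 and 40.9 with siRNA2, and 37.8, 39.5 and 48.5 with siRNA3, against 97.1, 101 and 71.8 CPM in control libraries. In both genes the siRNA1 libraries lay far below those with siRNA2 and siRNA3, which in turn lay below control. The motor KIF11 (-4.89, -1.0 and -1.31), the kinase TTK (-4.99, -1.01 and -0.98), the cohesin acetyltransferase ESCO2 (-5.75, -1.21 and -1.25) and the condensin subunit NCAPG (-5.33, -0.86 and -0.86) showed the same pattern, as did the exchange factor ECT2 (-3.87, -1.02 and -1.26) and the checkpoint protein MAD2L1 (-4.46, -1.36 and -1.11). With 9 libraries against 3, CDK1, NUF2, KIF11, TTK, ESCO2, NCAPG, ECT2 and MAD2L1 were not called (adjusted p 0.0527 to 0.219). MIS18A (-2.87, -1.29 and -1.81), which prepares centromeres for CENPA, and CENPK (-3.59, -1.25 and -1.32) of the inner kinetochore kept their call there.

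E2F factors switch on replication genes, and the E2F and CHR letters are known from promoters of cell cycle genes. Of 13 genes of the E2F and retinoblastoma families 7 were lower with every siRNA, among them E2F1 (-3.21, -1.17 and -0.8), E2F2 (-5.13, -1.6 and -2.08) and the repressor E2F8 (-5.24, -1.07 and -1.13), while TFDP2, a partner of E2F, was called with unlike signs (0.7, 0.28 and -0.39). E2F8 was not called with 9 libraries against 3 (adjusted p 0.123), nor was TFDP2 (0.473). Promoters of 4 genes that fell with every siRNA are shown, picked from the named genes because they hold the letters. They are therefore not typical of the lower genes, whose shares with a match are given below. Shown are the 250 bases before the transcription start, 5′ to 3′ on the gene's strand, from RefSeq on GRCh38.p14. CDK1 and ECT2 also held CHR letters there and are not shown. Capitals mark E2F letters in E2F2, MCM6 and E2F1 and CHR letters in KIF11, on either strand. E2F2 is at chr1:23531234-23531483 and MCM6 at chr2:135876444-135876693, both on the minus strand. E2F1 is at chr20:33686386-33686635 on the minus strand, and KIF11 at chr10:92592880-92593129 on the plus strand.
E2F2: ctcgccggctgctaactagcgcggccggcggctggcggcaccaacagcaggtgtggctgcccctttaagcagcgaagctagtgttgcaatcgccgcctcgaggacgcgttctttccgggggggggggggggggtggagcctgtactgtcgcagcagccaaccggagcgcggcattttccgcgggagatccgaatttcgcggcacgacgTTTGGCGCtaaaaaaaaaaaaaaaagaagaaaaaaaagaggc
MCM6: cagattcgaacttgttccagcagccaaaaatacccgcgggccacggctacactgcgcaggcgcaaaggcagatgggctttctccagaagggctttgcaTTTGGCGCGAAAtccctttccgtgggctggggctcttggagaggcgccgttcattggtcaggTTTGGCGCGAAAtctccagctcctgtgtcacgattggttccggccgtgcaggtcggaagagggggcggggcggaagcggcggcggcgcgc
E2F1: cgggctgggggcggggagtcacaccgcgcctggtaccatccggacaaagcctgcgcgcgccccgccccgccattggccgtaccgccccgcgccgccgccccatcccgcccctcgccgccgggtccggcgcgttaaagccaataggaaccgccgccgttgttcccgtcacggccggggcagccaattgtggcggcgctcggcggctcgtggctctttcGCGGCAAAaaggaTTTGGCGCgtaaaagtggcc
KIF11: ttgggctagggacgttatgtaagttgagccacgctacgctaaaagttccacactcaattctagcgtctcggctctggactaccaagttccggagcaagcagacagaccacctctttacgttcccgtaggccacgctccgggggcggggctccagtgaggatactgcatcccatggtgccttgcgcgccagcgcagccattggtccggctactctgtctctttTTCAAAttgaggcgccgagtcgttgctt
The first matching base lay 42, 152, 33 and 28 bases before the start in E2F2, MCM6, E2F1 and KIF11. The MCM6 promoter holds overlapping matches from both strands at 2 places.

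Windows of 300 bases, 250 before and 50 after the start, were found for 1817 of the 2226 genes lower with every siRNA. The E2F letters searched were TTTGGCGC, TTTCCCGC, TTTCGCGC and TTTGCCGC on both strands, and a window could hold more than 1 of them. At least 1 stood in 171 of the 1817 windows (9.41%), in 592 of 11278 windows of tested genes (5.25%) and in 1164 of the 35116 promoters of the RefSeq table (3.31%). The CHR letters TTTGAA stood in 13.6% of the 1817, 9.65% of the 11278 and 15.2% of the 35116, and CCAAT in 41.4%, 36.4% and 34.6%. The other 6 of the 9 motifs searched are given over the same 3 sets. TGACTCA (AP-1) stood in 1.6%, 3.22% and 4.95%, CACGTG (E-box) in 11.2%, 9.84% and 7.26%, and TGACGTCA (CRE) in 3.96%, 3.19% and 1.85%. GGAATG (TEAD) stood in 10%, 10.9% and 14%, the p53 decamer in 4.68%, 5.28% and 6.63%, and the CArG box in 0.936%, 1.03% and 1.29%. Windows were found for under 80% of the tested genes (79.9972%) and of the genes higher with every siRNA (78.6%), so a comparison with either is void, and the shares are a description. A match is a run of letters and not a bound site.

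Members of chromatin, RNA processing and telomere lists also fell. Of 24 chromatin and nuclear lamina genes 17 were lower with every siRNA and 1 was higher, and among the lower ones were the histone variant gene H2AFZ (-2.8, -0.87 and -0.88), the lamina-associated TMPO (-3.05, -0.84 and -1.08), the remodeller HELLS (-2.33, -0.76 and -0.88) and the maintenance methyltransferase DNMT1 (-2.18, -0.76 and -0.77). Of 31 HNRNP and SRSF splicing regulators 18 were lower and none was higher, such as SRSF7 (-1.63, -0.72 and -0.77), HNRNPA2B1 (-1.73, -0.65 and -0.87), TRA2B (-1.38, -0.7 and -0.64) and HNRNPA3 (-0.89, -0.78 and -0.68). Of 14 telomerase and shelterin genes 8 were lower and 1 higher, with TERT (above), the helicase RTEL1 (-1.36, -0.83 and -0.93), the telomerase trafficking factor WRAP53 (-1.57, -0.82 and -1.07) and the shelterin subunit POT1 (-1.03, -0.65 and -0.85). Of 42 mitochondrial ribosomal protein genes 16 were lower, as MRPL20 (-0.85, -0.69 and -0.77) with changes not told apart between siRNAs (adjusted p 0.497).

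Cytosolic ribosomal protein genes did not share a sign. None of 50 was called with one sign under every siRNA, although 31 were lower for the mean of the 3, and their medians were -0.71, -0.14 and 0.01. RPL13A was called with unlike signs (-1.73, -0.4 and 0.73). Without siRNA3 replicate 3, 15 of the 50 were lower with every siRNA.

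Genes of nuclear pores were lower as a family. The family was picked by name after values were seen, and it is given as a description. Of 20 tested genes named NUP with a number, 18 were lower with every siRNA and none was higher, with median changes of -1.29, -0.76 and -0.46. NUP58 of the central channel had mean levels of 20.6, 48 and 49.6 CPM with siRNA1, siRNA2 and siRNA3, against 98.7 CPM in control, and changes of -2.26, -1.04 and -0.99. NUP205 of the inner ring changed by -1.5, -0.8 and -0.76, and NUP107 of the outer ring by -1.59, -0.88 and -0.56. NUP133 was not called with siRNA3 (0.04) and NUP210 was not either (-0.17). Of 19 small nucleolar RNA host genes, picked in the same way, 11 were lower with every siRNA, including SNHG19 (-2.67, -1.72 and -1.54), and SNHG14 was higher (0.71, 0.59 and 0.47).

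The metabolic lists described next had from 9 of 31 to 11 of 20 tested genes lower with every siRNA. Other metabolic lists did not exceed the 15.8% of all genes. Nuclear oxidative phosphorylation had 5 of 34 lower (14.7%) and 2 higher. Amino acid transporters had 3 of 21 lower (14.3%), 1 higher and 2 with unlike signs. Of 20 genes of serine and one-carbon metabolism 11 were lower with every siRNA and none was higher. PHGDH, the first enzyme of serine synthesis, had 5.01, 4.33 and 4.34 with siRNA1, 18.3, 20 and 17.7 with siRNA2, and 17.3, 20.3 and 21.2 with siRNA3, against 52.6, 56.8 and 54.5 CPM in control libraries, and every siRNA library lay below control. PSAT1 of the same pathway changed by -1.16, -1.26 and -1.42, the mitochondrial folate enzyme MTHFD2 by -3.15, -1.82 and -1.7, and CBS, which feeds homocysteine into cysteine synthesis, by -1.63, -1.23 and -1.63. Of 30 NRF2 targets and redox genes 11 were lower, 1 was higher and 1 had unlike signs. A549 carries a KEAP1 mutation that keeps NRF2 active, as is known of the line. GCLC, the catalytic subunit that makes the glutathione precursor, had 130, 153 and 126 with siRNA1, 167, 162 and 182 with siRNA2, and 91.3, 88.2 and 84.1 with siRNA3, against 394, 393 and 352 CPM in control libraries, and its partner GCLM changed by -1.98, -1.8 and -1.04, thioredoxin TXN by -0.95, -1.1 and -0.9 and PGD of the pentose phosphate pathway by -0.74, -1.16 and -1.0. Of 28 genes of cholesterol and fatty acid synthesis 9 were lower, none was higher and 3 had unlike signs, with the isomerase IDI1 at -1.27, -1.02 and -1.19 and the desaturase SCD at -1.56, -0.73 and -2.41. Of 31 glycolysis and hypoxia genes 9 were lower and 1 was higher, but 7 were called with unlike signs. HK2, a hexokinase, changed by -1.98, -2.55 and -1.06, and LDHA, lactate dehydrogenase A, by -0.56, -1.1 and -0.84.

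**Figure D3:**
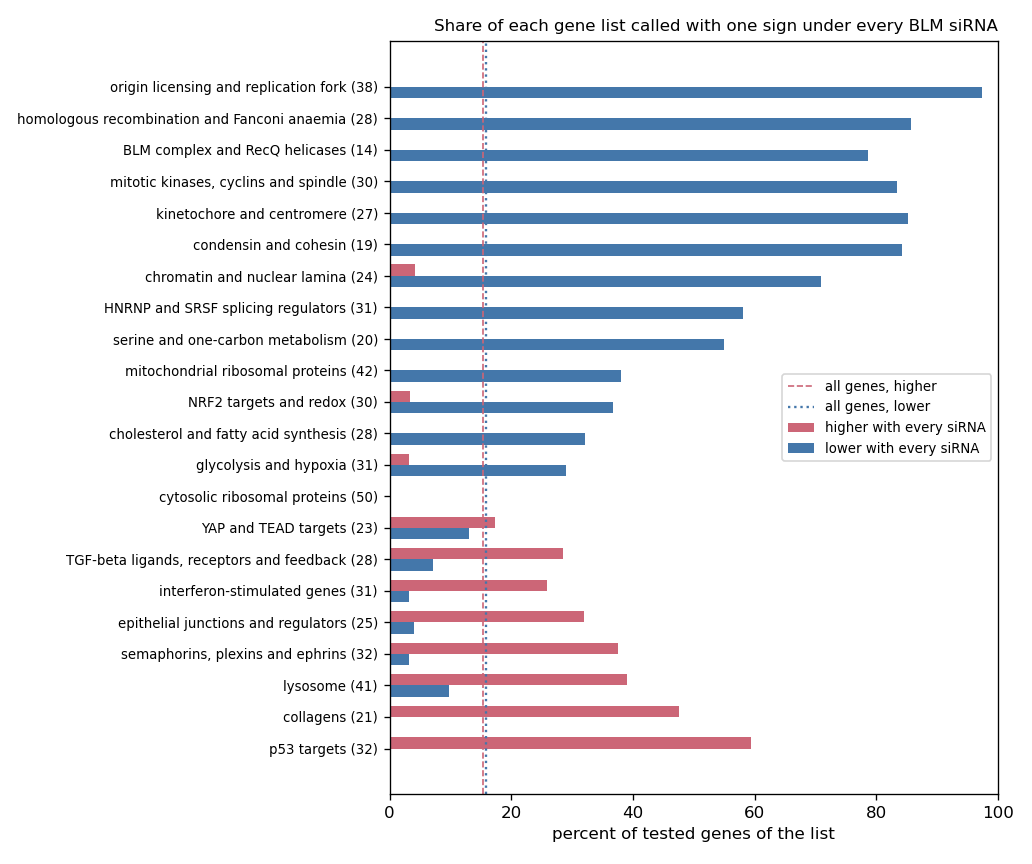
Percent of the tested genes of 22 lists that were higher or lower with every siRNA; the dashed and dotted lines are the shares over all 14098 genes, 15.3% and 15.8%. Bars for replication, recombination and mitosis reach 78.57% to 97.37% lower, p53 targets reach 59.38% higher, and cytosolic ribosomal proteins have no bar.

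Most p53 target genes tested rose. Of 32 tested, 19 were higher with every siRNA, none was lower, and 31 were higher for the mean, with medians of 2.22, 0.6 and 0.76. CDKN1A, which encodes the cell cycle inhibitor p21, had 948, 824 and 949 with siRNA1, 169, 170 and 152 with siRNA2, and 148, 143 and 174 with siRNA3, against 61, 65.1 and 67.6 CPM in control libraries. BTG2, an antiproliferative gene, had 131, 130 and 144 with siRNA1, 48.4, 49.4 and 45.3 with siRNA2, and 31.6, 32.4 and 38.4 with siRNA3, against 9.66, 9.92 and 8.26 CPM in control libraries. For both, all 9 siRNA libraries were above the controls and siRNA1 was highest. SPATA18, of mitochondrial quality control, rose by 5.03, 2.18 and 2.64, and the death gene BBC3, also called PUMA, by 3.03, 2.05 and 1.5. BAX, another death gene of the BCL2 family, rose by 0.93, 0.63 and 1.23, and SESN2, a stress-induced sestrin, by 2.83, 1.59 and 0.91. GDF15 (2.5, 0.87 and -0.58) and the repair gene DDB2 (1.64, -0.44 and 0.71) were called with unlike signs.

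Some AP-1 and immediate early genes rose. Of 14 AP-1 genes 5 were higher with every siRNA, 1 was lower and 3 had unlike signs. JUN had 84.3, 81.3 and 86.2 with siRNA1, 36.6, 34.4 and 34.5 with siRNA2, and 102, 100 and 104 with siRNA3, against 12, 12.9 and 14.1 CPM in control libraries, and ATF3 changed by 1.43, 1.18 and 1.3, not told apart between siRNAs (adjusted p 0.201). JUND changed by 2.13, 1.15 and 0.62 and FOSB by 0.87, 3.32 and 2.51. FOSB had 10 to 18 counts in control libraries, below 1 CPM, and passed the filter only through siRNA libraries. Of 18 immediate early genes, the EGR, IER and DUSP families among them, 6 were higher, 1 was lower and 3 had unlike signs. The MAP kinase phosphatases DUSP8 (3.45, 3.15 and 3.65), DUSP10 (2.19, 2.27 and 1.83) and DUSP16 (1.01, 1.13 and 0.99) were higher with every siRNA, while DUSP1, another one, had unlike signs, at mean levels of 92.3, 25.8 and 170 CPM with siRNA1, siRNA2 and siRNA3 against 107 CPM in control. DUSP8, with 17 to 30 control counts, was also below 1 CPM in controls and passed only through siRNA libraries.

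Some matrix and adhesion genes rose. Of 21 collagens 10 were higher with every siRNA, none was lower and 3 had unlike signs (COL3A1, COL5A2 and COL9A2), with medians of 1.33, 0.91 and 0.76. COL1A1, a chain of fibrillar type I collagen, had 24.6, 21.1 and 27.6 with siRNA1, 35.6, 33.5 and 32.1 with siRNA2, and 26.5, 26.1 and 18.8 with siRNA3, against 3.82, 4.46 and 4.14 CPM in control libraries. COL5A1 had 297, 300 and 324 with siRNA1, 357, 343 and 332 with siRNA2, and 735, 764 and 481 with siRNA3, against 89.1, 78.5 and 90.9 CPM in control libraries, lowest among the siRNA3 libraries in replicate 3. COL4A3, a basement membrane chain, rose by 3.06, 1.85 and 2.46. It had 25 to 62 control counts and was the 1 higher collagen below 1 CPM in a control library. Of 19 matricellular genes 7 were higher and 3 had unlike signs. Among the 7, 5 were below 1 CPM in a control library and so passed the filter through siRNA libraries. Of the 13 at 1 CPM or more in every control, 2 were higher (15.4%, close to the 14% of all such genes). The 7 included tenascin TNC (1.68, 5.08 and 6.23), NOV (2.83, 1.95 and 1.66) and CCDC80 (1.58, 2.13 and 2.47). Of 26 integrins and laminins 8 were higher, 1 was lower and 3 had unlike signs, among them ITGA11 (3.55, 2.39 and 2.41), ITGB6 (1.82, 1.7 and 2.87), LAMB3 (2.53, 1.93 and 1.81) and LAMA4 (1.2, 2.15 and 2.34). Fibroblast markers summed to 19.26 to 29.41 TPM in siRNA libraries and 9.26 to 11.03 TPM in controls, mostly COL1A1 and THY1, while DCN and COL1A2 stood at or below 0.02 TPM in every library.

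The share higher with every siRNA was 28.6% in the contractile and TGF-beta lists and 37.5% in the guidance list, against 47.6% of collagens. Of 21 smooth muscle actin and SRF target genes 6 were higher with every siRNA, none was lower and 2 had unlike signs, with ACTA2 (above), the tropomyosin TPM4 (1.42, 1.37 and 2.41) and FHL2 (1.88, 0.53 and 1.46). Of 28 TGF-beta genes 8 were higher, 2 were lower and 5 had unlike signs, the higher ones including the receptor TGFBR2 (1.57, 1.98 and 1.11), the ligand TGFB2 (1.89, 0.94 and 1.52) and LTBP2 (1.73, 1.78 and 2.44), which is related to the proteins that anchor latent TGF-beta. Of 32 semaphorins, plexins and ephrins, guidance and contact signals, 12 were higher, 1 was lower and 6 had unlike signs, with higher genes such as PLXNA4 (3.62, 2.91 and 3.4), SEMA3E (1.57, 2.17 and 1.43) and SEMA3B (3.03, 2.03 and 0.95). PLXNA4 had 21 to 23 control counts, below 1 CPM, and passed the filter only through siRNA libraries.

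Epithelial, lysosomal and interferon lists also held higher genes. Of 25 epithelial junction genes 8 were higher with every siRNA, 1 was lower and 4 had unlike signs, with F11R (0.83, 1.0 and 0.8) of tight junctions and the desmosomal cadherin DSG2 (1.04, 0.79 and 1.36). The keratin KRT19 rose by 2.6, 2.34 and 0.87, but keratins did not move as 1. Of 9 tested, 2 were higher with every siRNA and none lower, and for the mean 5 were higher and 4 lower. Of 17 mesenchymal genes only 2 were higher (11.8%, below the 15.3% of all genes), none was lower and 1 had unlike signs. For the mean, 9 of the 17 were higher and 5 lower. The 2 were CDH2 or N-cadherin (0.72, 0.62 and 1.31) and the repressor SNAI2 (2.66, 0.78 and 3.09). SNAI2, with 32 to 46 control counts, was below 1 CPM in a control library. Of 41 lysosomal genes 16 were higher, 4 were lower and 3 had unlike signs, with the protease CTSD (1.72, 2.2 and 1.07) and the sphingomyelinase SMPD1 (1.66, 2.07 and 1.05) higher and the protease CTSL (-1.32, -1.07 and -1.25) lower. Of 31 interferon-stimulated genes 8 were higher, 1 was lower and 1 had unlike signs. The higher ones included MX1 (1.28, 1.95 and 2.19), IFI44 (1.5, 3.03 and 1.88) and IFIT2 (1.09, 1.23 and 1.38). MX1 and IFI44, with 31 to 33 and 8 to 11 counts in controls, were below 1 CPM there. They passed the filter only with the help of siRNA libraries. Of the 28 interferon-stimulated genes at 1 CPM or more in every control, 6 were higher (21.4%, against 14% of all such genes). A separate list of MHC class I presentation had 17 tested genes. Of these, 2 were higher (11.8%, ERAP2 and NLRC5), 1 was lower (5.88%) and 4 had unlike signs, so neither share exceeded that of all genes. The lower one was HLA-B, which presents peptides to T cells. It had 9.63, 8.13 and 9.33 with siRNA1, 9.7, 10.1 and 9.23 with siRNA2, and 6.31, 7.27 and 7.39 with siRNA3, against 23.3, 27.7 and 26 CPM in control libraries.

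Clustered protocadherins are a family with many higher genes. They are cell adhesion proteins of neurons, encoded in 3 neighbouring clusters and chosen by each cell through its own promoter. The family was picked after PCDHB14 and PCDHGB5 appeared among the 15 highest genes, so its counts are a description. Of 53 members in the files 32 passed the filter on low values, and 26 of these were higher with every siRNA and none lower, with median changes of 2.69, 2.18 and 1.4. The filter sets much of this count: 21 of the 32 were below 1 CPM in a control library and passed only with the help of siRNA libraries, and 19 of the 26 are among them. Of the 11 at 1 CPM or more in every control, 7 were higher: 3 of 6 in the alpha cluster, 2 of 2 in the beta cluster and 2 of 3 in the gamma cluster. PCDHGB5 had 15, 13 and 12.9 with siRNA1, 14.8, 18 and 14.6 with siRNA2, and 11.7, 11.5 and 7.25 with siRNA3, against 1.13, 0.946 and 1.03 CPM in control libraries, and PCDHB14 had 82 to 106 counts with siRNA1, 45 to 57 with siRNA2 and 47 to 59 with siRNA3, against 1 to 7 in controls. All 9 siRNA libraries lay above the controls for 22 of the 32. The exceptions to one sign were PCDHA1, PCDHA3, PCDHA5, PCDHAC1, PCDHAC2 and PCDHGC3. Gamma and alpha members share 3′ exons, so estimated counts of single members are uncertain. Without siRNA3 replicate 3 the count was 25, and on TPM plus 1 it was 22, with 2 members called with unlike signs.

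**Figure D4:**
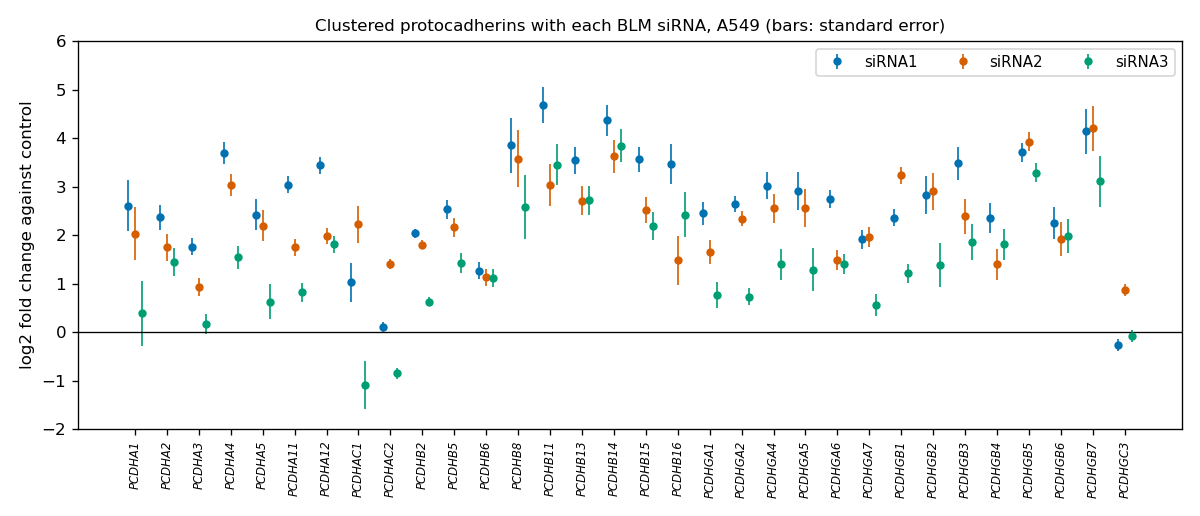
Log2 fold change against control, with standard error, of the 32 tested clustered protocadherins with siRNA1, siRNA2 and siRNA3. Nearly all points lie above 0, PCDHB14 of the beta cluster lies at 4.37, 3.63 and 3.84, and PCDHAC1, PCDHAC2 and PCDHGC3 have values on both sides of 0.

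Unlike signs had a main pattern. Of the 1148 genes called with all 3 siRNAs but not in 1 direction, 447 were higher with siRNA1 and siRNA2 and lower with siRNA3, and 247 were lower with siRNA1 and siRNA2 and higher with siRNA3, so siRNA3 was the odd one in most. For 267 genes siRNA2 was alone and for 187 siRNA1 was. CDH1, the E-cadherin of epithelial junctions, had 144, 152 and 147 with siRNA1, 175, 173 and 170 with siRNA2, and 4.21, 4.2 and 3.03 with siRNA3, against 50.1, 42 and 45.2 CPM in control libraries. Its mean change of 0.01 ± 0.08 hid a rise with siRNA1 and siRNA2 and a fall with siRNA3. IGF2, a growth factor, changed by 3.38, 3.38 and -1.84, and COL21A1 by 2.4, 2.99 and -2.51. GJB1, a connexin, had 23 to 43 counts with siRNA1, 64 to 70 with siRNA2 and 0 with siRNA3, against 3 to 5 in control, and ITIH2 had 29 to 41, 56 to 59 and 0 to 1, against 4 to 8. ADH6, with 36 to 48, 14 to 22 and 0 to 1 counts against 2 to 3, lost its call in several left-out libraries (adjusted p up to 0.131). Of 23 YAP and TEAD target genes 8 had unlike signs. The matrix signal CTGF had 22, 24.6 and 22.3 with siRNA1, 4.12, 3.91 and 4.09 with siRNA2, and 63.9, 66.8 and 78.5 with siRNA3, against 13.3, 13.7 and 14.3 CPM in control libraries, CYR61 changed by 0.52, -1.2 and 2.7, and ANKRD1 rose with every siRNA (2.51, 1.4 and 3.32). COL3A1 (1.59, 3.25 and -0.64) had its call with all 3 lost without siRNA3 replicate 3 (adjusted p 0.178) or control replicate 1 (0.0834). The drug efflux pump ABCG2 changed by -3.0, 0.26 and -1.35.

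**Figure D5:**
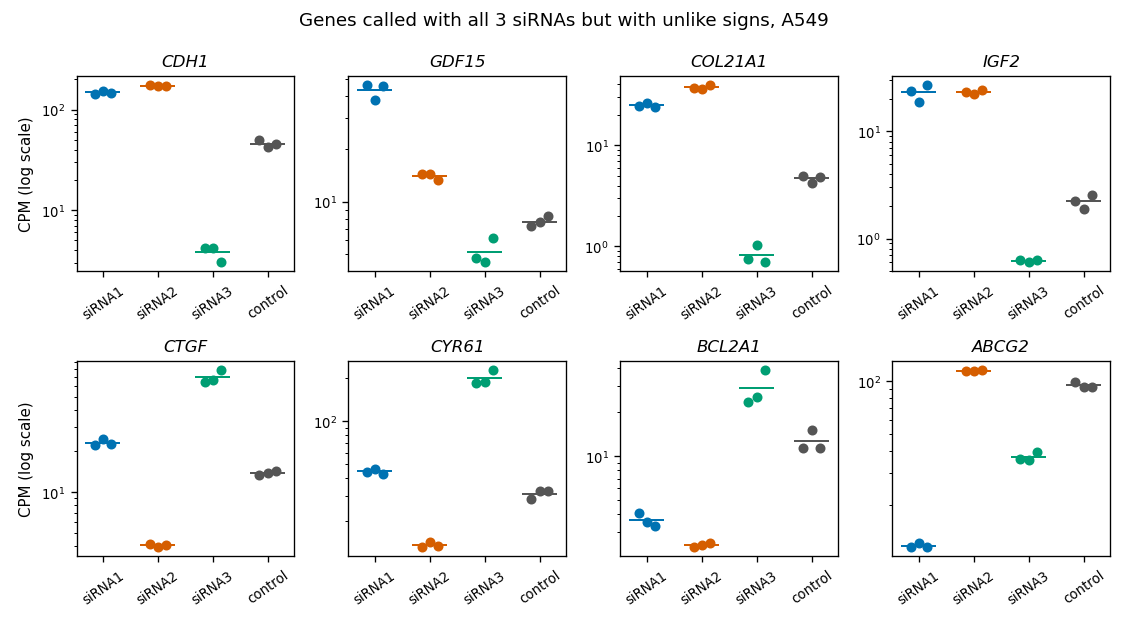
CPM of 8 genes called with all 3 siRNAs but with unlike signs, by A549 library on a log axis, with BLM siRNA groups left of control; points are libraries and bars are means (n = 3 each). CDH1, GDF15, COL21A1 and IGF2 are above control with siRNA1 and siRNA2 and below it with siRNA3, BCL2A1 is the reverse, CTGF and CYR61 are below control with siRNA2 only, and ABCG2 is above it with siRNA2 only.

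Sharing a sign did not mean sharing a size. Equality of the 3 siRNA groups was rejected for 3502 of the 4385 genes with one sign (79.9%), close to the 82.7% of all genes tested. The median ratio of the largest to the smallest of the 3 log2 fold changes was 2.01 for higher genes and 2.2 for lower genes. siRNA1 gave the largest change for 50.9% of higher and 58.9% of lower genes, while the smallest came most often with siRNA2 for higher genes (41.45%) and with siRNA3 for lower genes (47.1%). Median changes of the higher genes were 1.12, 0.85 and 0.89, and of the lower genes -1.0, -0.71 and -0.67. Changes of at least 1 on the log2 scale with every siRNA were found for 503 higher and 225 lower genes. BLM was lowest with siRNA1, and the 3 siRNAs are too few for a relation between BLM level and the rest to be tested. Sizes were not told apart for 411 higher and 472 lower genes, among them IFIT2 (1.09, 1.23 and 1.38), E2F7 (-0.78, -0.73 and -0.88) and IDI1 (-1.27, -1.02 and -1.19).

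MDA-MB-231 libraries with siRNA1 have their own controls; that it is the siRNA1 of A549 is taken from its name. BLM there had 5.25, 5.08 and 5.18 CPM with siRNA1, against 33.5, 35.5 and 35.9 CPM in control. Of 13572 genes tested 29.9% were higher and 29.8% lower. Of the 2159 genes higher with every siRNA in A549, 1865 were tested there, and 782 were higher (41.9%) and 414 lower (22.2%). Of the 2226 lower ones, 2113 were tested, and 1065 were lower (50.4%) and 334 higher (15.8%). Genes higher with siRNA1 in A549 but not with every siRNA were higher in 44.8% of 2710 cases, and the matching share for lower genes was 44.7% of 2629, so one sign under 3 siRNAs did not go with a higher share for higher genes, and the difference was not tested.

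Counts of the same lists in MDA-MB-231 differed between functions. All 38 replication genes and all 30 mitotic genes were lower in MDA-MB-231, as were 24 of 28 recombination genes and 17 of 20 nucleoporins. Of 29 p53 targets 13 were higher and 6 lower; MDA-MB-231 is known to carry mutant p53. Of 19 collagens 5 were higher and 10 lower, and of 27 NRF2 and redox genes 13 were higher and 5 lower. Of 18 clustered protocadherins 8 were higher and 2 lower. CDKN1A changed by 1.29, ACTA2 by -0.25 without a call, JUN by 0.42, PHGDH by -0.1 without a call and GCLC by 0.63 (log2 fold changes, siRNA1 against control in MDA-MB-231). Of the 15 genes highest with every siRNA 11 were tested there, 1 called in the same and 3 in the opposite direction, and of the 15 lowest 10 were tested, 6 called in the same and 1 in the opposite direction. Of the genes called in the most cautious model, THBD was higher there (1.12), SYTL2 was lower (-0.89), and DKK3 (0.01) and TRIML2 (0.05) were not called.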

How the data were processed

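RNA was measured by stranded sequencing of total RNA after removal of ribosomal RNA, per the labels' protocols. Expected counts and TPM per gene were made by the authors with RSEM on hg19, per the submitters' processing notes and the column names in the file headers; the RSEM version, aligner and annotation are not given there. FPKM was not used. Expected counts, 11% of them not whole, were rounded. Totals were 30887830 to 40328208 per A549 library and 30143047 to 37577025 per MDA-MB-231 library.

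Genes with at least 1 CPM in 3 or more of the 12 A549 libraries were fitted by group with TMM scaling in edgeR 4.0.16 (R 4.3.3; quasi-likelihood test). The contrast was the mean of the 3 siRNA groups minus control, with each siRNA minus control and a test of equal siRNA groups from the same fit, and p-values were adjusted over all 14098 genes. Standard errors were derived from the fold change and its F value. MDA-MB-231 was fitted alone (13572 genes). Alternatives used DESeq2 1.42.0, limma 3.58.1, other scalings and filters, log2 of TPM plus 1 or 0.1, left-out libraries and siRNAs, a replicate block, and models with the spread between siRNAs as error. In simulated data 67, 67 and 66 of 14098 genes were changed 1.5-fold, 2-fold and 4-fold, by the same fold with every siRNA. The one-sign rule found 64.2%, 94% and 100% of them, and the mean of 3 found 91%, 100% and 100%. Far more genes changed in the real libraries, mostly by unequal sizes, so these rates need not hold there.

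Members, gene lists and families were chosen with earlier results of these data known. The genes named are BLM, the 15 higher and 15 lower with the largest smallest change over the 3 siRNAs, 5 with unlike signs, up to 4 per list ranked in the same way, list members with unlike signs, and genes said to be chosen after their values were seen. RefSeq promoters (GRCh38.p14) were matched by symbol, older symbol or accession, not by position. A few genes that the rule names are not reported here.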

Additional observations from a re-analysis of the deposited data

Results flagged for a closer look

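For 4 of the 21 genes that were among the 15 highest or 15 lowest with every siRNA and were tested in MDA-MB-231, the call there was opposite. They were chosen for that, so a test of the difference would add nothing, and the mean of 3 siRNAs in A549 is set against siRNA1 alone in MDA-MB-231, so line and siRNA cannot be told apart in it. As a description, the mean change in A549 minus that in MDA-MB-231 in a fit of all 18 libraries was 4.26 ± 0.40 on the log2 scale (standard error) for FILIP1L, 4.8 ± 0.16 for COL17A1, 4.74 ± 0.48 for SELPLG and -4.42 ± 0.24 for TUBAL3. Of those 21 genes 7 were called in the same direction in both lines.

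In 4 of 174 genes followed, 1 of the 9 siRNA libraries lay far from the other 8. These were E2F7 with 19.9 CPM, TXN with 668 CPM and ADAMTSL4 with 1.22 CPM in siRNA3 replicate 3, and INHBA with 1.79 CPM in siRNA1 replicate 2. The critical value used is nominally passed by chance in about 1 in 20 groups of like samples, and these 9 libraries come from 3 siRNA groups, so that rate need not hold here. siRNA3 replicate 3 is the library described above as standing apart, and its part in these values was not tested.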

How the results depend on the processing

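No named gene turned its called direction under the alternatives run. Which direction held more genes did turn: with size factors from DESeq2 the mean gave 4955 higher and 5047 lower genes, 5003 and 5017 with limma-voom, 5393 and 5528 with no filter and 4951 and 5344 with all 18 libraries, and one sign gave 2425 and 1944 with upper quartile scaling and 2364 and 2216 with filterByExpr. Counts for the mean, for one sign and for unlike signs stayed within 1.5 times under other scalings, filters, tools and TPM. With an absolute log2 fold change of at least 1 the mean gave 1493 higher and 913 lower genes, one sign 503 and 225, and unlike signs 95. One sign held for 2531 and 2523 genes without siRNA1, 3045 and 2613 without siRNA2, and 3786 and 3723 without siRNA3; siRNA3 was also alone in its sign in 694 of the 1148 genes with unlike signs. With 9 libraries against 3, 2491 were higher and 2144 lower, and with the correlation within an siRNA estimated 4 and 1. Both models count the spread between siRNAs as error, but the first takes the 9 libraries as independent. Of 174 genes followed, 26 lost their call with 9 against 3 and 167 with the estimated correlation. Leaving out 1 library gave 4487 to 5617 higher and 4439 to 5067 lower genes for the mean, 1875 to 2585 and 1848 to 2322 for one sign, 856 to 1423 with unlike signs, and in MDA-MB-231 685 to 796 and 974 to 1123. With TPM plus 1 one sign held for 2317 and 1642 genes. Same-numbered libraries did not deviate together (correlations -0.552 to 0.315), so numbers pair nothing; a replicate block gave 4878 and 4818 for the mean, 2072 and 2073 for one sign, 1021 with unlike signs, and 787 and 1065 in MDA-MB-231. On TPM plus 1, 6 of the 174 genes lost their call: TFDP2, INHBA, COL3A1, GJB1, ADH6 and ITIH2. Depth limits genes with few counts, such as PINCR.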
